A study of Homo sapiens with 9 samples.

Results

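The HOX genes are homeobox transcription factors that lie in 4 clusters, A to D. They were taken here as every row of the array table whose gene symbol is HOX followed by a cluster letter and a number, with the brightest row standing for a gene. This gave 27 genes out of 14884 genes measured. RefSeq lists 39 protein-coding HOX genes. The genes analysed here were all 10 of cluster B, all 9 of cluster D, 7 of 9 in cluster C and, of the 11 in cluster A, HOXA2. The remaining 12 were not analysed here.

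Cluster order mirrors use in the embryo. Low-numbered genes at one end of a cluster act toward the head and high-numbered genes at the other end act toward the tail and the limb tips. Genes of the same number in different clusters are paralogues with closely related homeodomains, and HOX proteins bind DNA together with TALE homeodomain partners such as PBX and MEIS. Polycomb complexes keep silent HOX clusters off, and trithorax complexes with the MLL methyltransferases keep active ones on. In breast, HOXB7 and HOXB9 have been tied to tumour growth and spread, while HOXD10 is lowered in invasive cancer.

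The cells were MDA-MB-231, an established triple-negative breast cancer line, here a single line with no other model beside it. The 3 controls are labelled with agent none and time point 0, and 2 groups of 3 received 500 nM JQ1, an inhibitor of BET bromodomain proteins, for 12 h or 24 h. All groups were grown in DMEM with FBS, and each sample was hybridised to 1 Human Gene 2.0 ST array. No vehicle is named and no control was kept for 12 h or 24 h, so solvent and time in culture cannot be told apart from JQ1 in the comparisons with control. Nothing in the labels ties a replicate to a culture of its own, and the spread behind every p-value here may therefore be technical.

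The deposited values are log2 readings, with array medians between 4.92 and 4.96 over all rows. Control 3 stood apart, with correlations of 0.983 with each of the other controls over all rows, against 0.995 between those, and each call below was also made without it. Fixed markers were read for the labelled cell type, as a description and not as a test of it. VIM, CD44, ANXA1 and AXL, genes of mesenchymal-like breast lines, had means over the 9 arrays from 7.48 to 11.73. CD14, DCN, PECAM1 and VWF, the measured markers of leukocytes, fibroblasts and endothelium, had means from 2.99 to 4.97. Of 7 luminal and epithelial markers, ESR1 and PGR, the hormone receptors that triple-negative cells lack, had means of 5.04 and 4.09, FOXA1 had a mean of 4.95, and KRT18, KRT8, GATA3 and EPCAM had means of 10.22, 6.94, 6.68 and 6.26. Of these lists, only the luminal one had called members with all arrays. Of its 7 genes, 1 rose and 2 fell at 12 h, and 2 rose and 1 fell at 24 h. Over all genes, 7.93% and 11.5% were called. Without control 3 the luminal counts were the same, and 1 gene of the mesenchymal-like list rose at each time. In those fits 20.1% and 20.9% of all genes were called. KRT18 rose and GATA3 fell at both times, EPCAM fell at 12 h and KRT8 rose at 24 h. No detection calls came with the table, and values of different rows are not comparable as levels. Among the HOX genes, 21 of 27 had a mean below the 6.13 of the median gene and 10 had a mean under 5.

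After JQ1, 1 HOX gene changed by more than 2-fold. HOXB9, which has been tied to invasion and new vessel growth in breast cancer, fell more than 4-fold at both times. HOXB3 fell by less than 1.5-fold at both times, and HOXD3, its paralogue, fell by a similar amount and was called at 24 h. No HOX gene rose in either comparison. The plot of log2 differences for the 27 genes shows HOXB9 far to the left of all the others.

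**Figure D1:**
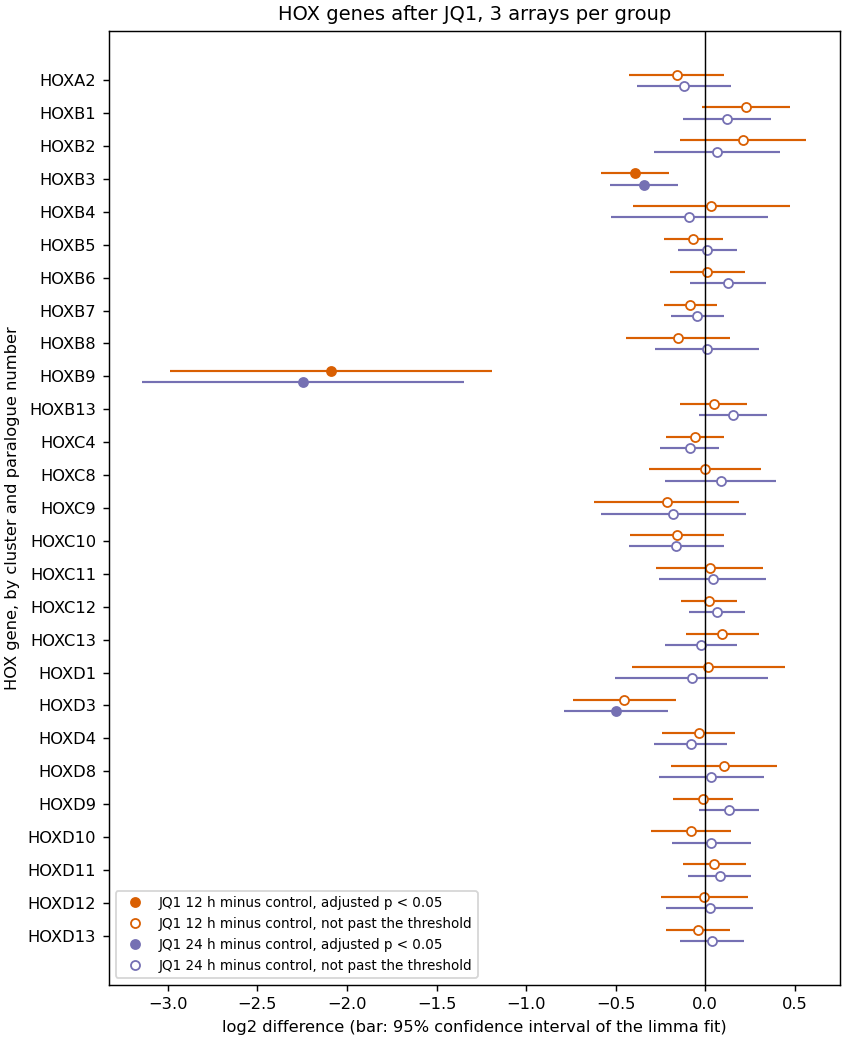
Log2 difference of each of the 27 HOX genes from control after 12 h (orange) and 24 h (purple) of JQ1, with 95% confidence intervals from the limma fit to all 9 arrays; filled points passed an adjusted p of 0.05. HOXB9 lies at −2.09 and −2.25, HOXB3 at −0.39 and −0.34 and HOXD3 at −0.45 and −0.50, while the other 24 genes lie between −0.21 and 0.23.

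By limma with Benjamini-Hochberg adjustment over all 14884 genes, 0 HOX genes rose and 2 fell at 12 h. That is 7.41% of the 27, beside 7.93% of all genes called in either direction and 4.39% called down. At 24 h 0 rose and 3 fell, or 11.1%, beside 11.5% of all genes called in either direction and 6.34% called down. The share of HOX genes called was therefore close to that of all genes in both comparisons. The median HOX gene differed from control by −0.01 at 12 h and 0.01 at 24 h, and the median of all genes by 0.01 at both. A fall of at least 2-fold was called for 0.786% of all genes at 12 h and 1.12% at 24 h. Without control 3, 3 and 4 HOX genes were called at 12 h and 24 h, or 11.1% and 14.8%, beside 20.1% and 20.9% of all genes. The numbers called were 0 to 3 at 12 h and 1 to 4 at 24 h when 1 array at a time was left out.

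HOXB9 read 10.02, 9.92 and 8.22 in controls 1, 2 and 3. It read 7.35, 7.22 and 7.31 after 12 h of JQ1 and 7.26, 6.95 and 7.21 after 24 h. All 6 treated arrays lay below all 3 controls, but control 3 lay 1.76 below the mean of controls 1 and 2, and only 0.87 above the highest treated array. The group mean went from 9.39 ± 1.01 to 7.29 ± 0.07 at 12 h and 7.14 ± 0.17 at 24 h (SD, n = 3 each). At 12 h the fall was 4.26-fold (log2 −2.09, SE 0.40, 95% confidence interval −2.99 to −1.19, limma adjusted p = 0.015). At 24 h it was 4.75-fold (log2 −2.25, SE 0.40, 95% confidence interval −3.14 to −1.35, limma adjusted p = 0.0081). Among all genes ordered from the strongest fall, HOXB9 stood at place 15 of 14884 at 12 h and place 17 at 24 h.

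Without control 3 the HOXB9 difference was −2.68 at 12 h and −2.83 at 24 h, or 6.39-fold and 7.12-fold, with SE 0.10 for both and limma adjusted p-values of 9.7e-07 and 9.2e-07. The treated mean, 7.22 over 6 arrays, was still 1.00 below control 3. The 12 h call was lost without control 1, control 2 or any of the 12 h arrays (limma adjusted p up to 0.059), and also in a fit of the 2 groups alone (0.065). The 24 h call was kept under all 19 alternatives run. The part of control 3's departure in the HOXB9 result was not tested beyond these values.

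**Figure D2:**
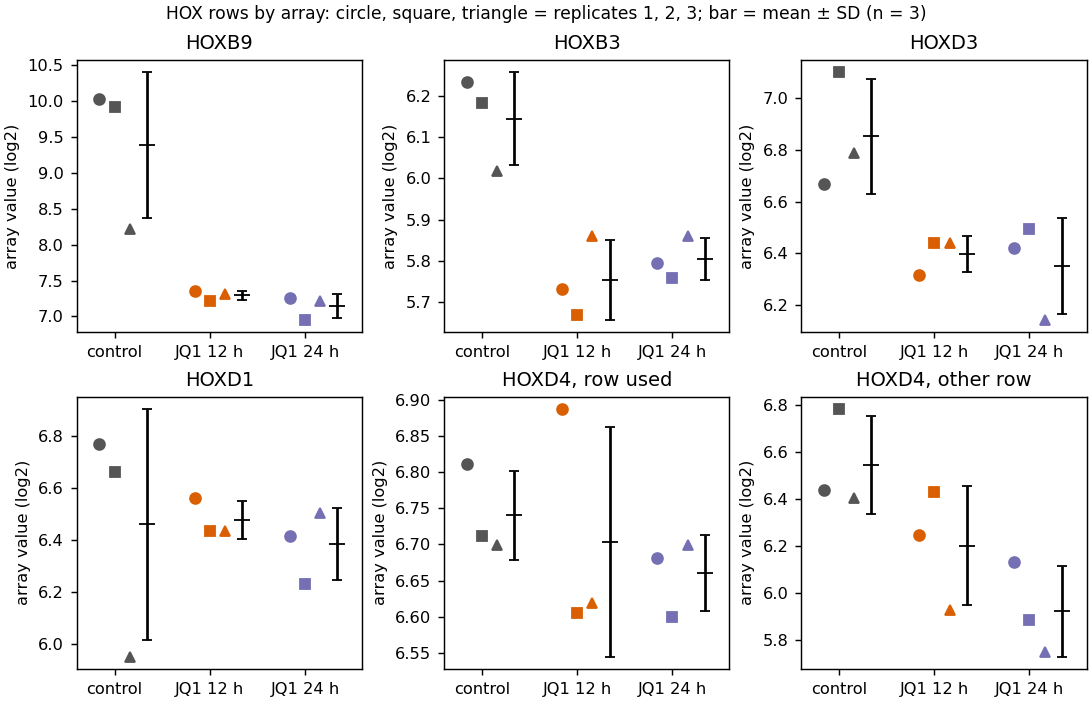
Log2 array values of HOXB9, HOXB3, HOXD3, HOXD1 and both rows of HOXD4 in control, JQ1 12 h and JQ1 24 h arrays (circle, square and triangle for replicates 1, 2 and 3), with mean ± SD of 3 arrays beside them; each panel has its own scale and does not start at 0. HOXB9, HOXB3 and HOXD3 have all 6 treated arrays below the 3 controls, and control 3 is low for HOXB9 (8.22) and HOXD1 (5.95).

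The genes beside HOXB9 in the cluster did not pass the test. HOXB8, a regulator of myeloid progenitors that neighbours HOXB9 on the low-numbered side, read 5.18, 5.14 and 5.26 in controls, and 5.17, 5.12 and 4.83 at 12 h, with a mean of 5.20 ± 0.23 at 24 h. Its 95% confidence intervals were −0.44 to 0.14 and −0.28 to 0.30, which exclude a fall of the array value of the size seen for HOXB9. Its control mean of 5.19 was near the median of all rows, 4.94. Whether a row at that level could show such a fall of the RNA was not tested. HOXB13, the high-numbered end of the cluster and a cofactor of the androgen receptor in prostate, had a mean of 4.38 ± 0.01 in controls and 4.53 ± 0.14 at 24 h (log2 0.15, SE 0.08, limma adjusted p = 0.31). HOXB7, which raises FGF2 in breast cells, had intervals of −0.23 to 0.06 and −0.19 to 0.10. All 3 rows lay below the median gene, with means of 5.15, 4.44 and 5.48.

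The microRNA gene MIR196A1 lies between HOXB9 and HOXB13. MicroRNAs of this family are known to repress HOX messages, HOXB8 above all, and a copy sits in each of clusters A, B and C. The mature products are shown because the family is read here only through rows for its genes. Mature sequences are from RefSeq (GRCh38.p14), and the capitals mark the seed, bases 2 to 8.
hsa-miR-196a-5p: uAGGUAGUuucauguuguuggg
hsa-miR-196b-5p: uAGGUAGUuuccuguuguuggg
They share the seed and differ by A12C, counted from the 5′ end with the base of miR-196a first. MIR196A1 and MIR196A2 both give miR-196a-5p, at chr17:48632532-48632553 on the minus strand and chr12:53991762-53991783 on the plus strand, and MIR196B gives miR-196b-5p at chr7:27169528-27169549 on the minus strand. At 12 h the MIR196A1 row differed from control by 0.09 (limma adjusted p = 0.57), MIR196A2 by 0.26 (0.25) and MIR196B by 0.01 (0.98). At 24 h the MIR196A1 row differed from control by 0.19 (limma adjusted p = 0.15), MIR196A2 by 0.08 (0.76) and MIR196B by 0.09 (0.64). These rows do not separate hairpin from primary transcript and say nothing of the mature RNA.

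HOXB3, a gene of the hindbrain that also acts in blood vessel growth, read 6.23, 6.18 and 6.02 in controls 1, 2 and 3. It read 5.73, 5.67 and 5.86 at 12 h and 5.79, 5.76 and 5.86 at 24 h. Every treated array was below every control. The fall was 1.31-fold at 12 h (log2 −0.39, SE 0.08, limma adjusted p = 0.024) and 1.27-fold at 24 h (log2 −0.34, SE 0.08, limma adjusted p = 0.032). Without control 3 it was −0.46 and −0.40 (limma adjusted p = 0.0042 and 0.0075). The 12 h call was lost without control 1, control 2, or 12 h replicate 1 or 2, and the 24 h call without control 1, control 2 or any 24 h array (limma adjusted p up to 0.097 and 0.11). Fits of the 2 groups alone also ended both calls, and a fit over all rows that at 24 h. In RefSeq the HOXB3 gene spans HOXB4, and whether the 2 rows share probes was not tested. HOXB4, a gene of blood stem cells, varied more within the treated groups, with 4.15, 4.68 and 4.98 at 12 h, and differed from control by 0.03 and −0.09 (SE 0.19 each).

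HOXD3, known to raise integrins in endothelial cells, read 6.67, 7.10 and 6.79 in controls, 6.32, 6.44 and 6.44 at 12 h, and 6.42, 6.49 and 6.14 at 24 h. Here control 3 lay between the other controls, and all treated arrays were below them. At 12 h the difference was −0.45 (SE 0.13, limma adjusted p = 0.066), and at 24 h HOXD3 fell 1.41-fold (log2 −0.50, SE 0.13, limma adjusted p = 0.037). Without control 3 both times were called (log2 −0.48 and −0.53, limma adjusted p = 0.040 and 0.026). The 24 h call was lost without control 2, without any 12 h array, without 24 h replicate 1 or 3, in a fit of the 2 groups alone, and over all rows of the table (limma adjusted p up to 0.13).

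HOXD4, the next gene in the cluster, overlaps HOXD3 in RefSeq and is the only HOX gene here with more than 1 row, and its rows disagreed. The brighter row read 6.81, 6.71 and 6.70 in controls and 6.68, 6.60 and 6.70 at 24 h (log2 −0.08, SE 0.09, limma adjusted p = 0.67). The other HOXD4 row read 6.44, 6.78 and 6.41 in controls, 6.25, 6.43 and 5.93 at 12 h, and 6.13, 5.89 and 5.75 at 24 h. Fitted with all 53617 rows, an alternative chosen after the data were seen, that row differed by −0.34 at 12 h (SE 0.16, limma adjusted p = 0.39) and −0.62 at 24 h (SE 0.16, limma adjusted p = 0.077). Its 24 h arrays lay below all its controls, as those of HOXD3 did, and in that same fit HOXD3 had a limma adjusted p of 0.078 at 24 h. Whether the second HOXD4 row holds probes shared with HOXD3 was not tested.

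HOXD1, at the low-numbered end of its cluster, read 6.77 and 6.66 in controls 1 and 2 but 5.95 in control 3. It read 6.56, 6.44 and 6.44 at 12 h and 6.42, 6.23 and 6.51 at 24 h, above control 3 and below the other controls. At 12 h the difference was 0.02 with all arrays (limma adjusted p = 0.98) and −0.24 without control 3 (0.14), not called in either fit. With all arrays the difference was −0.08 at 24 h (SE 0.19, limma adjusted p = 0.87), and without control 3 it was −0.33 (SE 0.10, limma adjusted p = 0.041). HOXB9 and HOXD1 were the only HOX genes for which control 3 lay more than 0.5 under the other controls' mean. The median HOX gene differed by 0.08 in either direction between them, and the median of all genes by 0.16.

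Promoter windows from RefSeq (GRCh38.p14) matched 11 of the 27 HOX genes, HOXA2, HOXB1, HOXC4 and 8 of cluster D. HOXB9 and HOXB3 had no window, so the motif counts do not cover them. The 250 bases before the start of HOXD3, HOXD4 and HOXD1 are shown. With all arrays HOXD3 was called at 24 h, and the rows used for HOXD4 and HOXD1 were not. Whether the 3 genes differed in their response was not tested, and the second HOXD4 row lay below its controls at 24 h. The strand is plus for all 3, and the capitals mark the E-box CACGTG and the homeodomain core TAATTA, each searched on both strands.
HOXD3, chr2:176157057-176157306: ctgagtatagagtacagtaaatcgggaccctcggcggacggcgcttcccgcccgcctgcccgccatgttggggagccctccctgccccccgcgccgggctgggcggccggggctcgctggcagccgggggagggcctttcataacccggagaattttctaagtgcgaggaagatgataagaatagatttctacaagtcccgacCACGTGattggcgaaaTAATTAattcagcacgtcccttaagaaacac
HOXD4, chr2:176151300-176151549: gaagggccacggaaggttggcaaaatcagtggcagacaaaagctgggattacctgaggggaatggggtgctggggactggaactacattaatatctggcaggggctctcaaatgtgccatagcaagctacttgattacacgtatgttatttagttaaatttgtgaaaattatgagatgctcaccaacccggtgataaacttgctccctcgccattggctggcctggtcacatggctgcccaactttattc
HOXD1, chr2:176188418-176188667: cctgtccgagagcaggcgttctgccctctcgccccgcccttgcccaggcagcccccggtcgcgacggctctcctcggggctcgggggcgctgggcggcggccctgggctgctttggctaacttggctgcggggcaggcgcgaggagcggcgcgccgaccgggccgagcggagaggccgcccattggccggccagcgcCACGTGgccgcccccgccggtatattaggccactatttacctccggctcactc
HOXD3 held an E-box that began 47 bases before the start and a homeodomain core 31 bases before it, HOXD1 held an E-box 53 bases before it, and the HOXD4 window held neither motif. Among the 11 HOX windows, 5 held CACGTG (HOXD1, HOXD3, HOXD10, HOXD11 and HOXD13), beside 6.34% of the 35116 windows of all genes. TAATTA was in 2 of the 11 (HOXD3 and HOXD11) and in 4.35% of all windows. CCGCCC, the GC box, was in the same 5 as the E-box and in 42.6% of all windows. TATAAA, the TATA box, was in HOXD13 alone and in 10.7% of all windows, and the AP-1 motif TGACTCA was in 0 of 11 and in 4.20% of all windows. A match describes the letters in the window and is not evidence of a site in use. Each of the 11 genes had 1 window, and whether its array row reads a transcript from that start was not tested.

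**Figure D3:**
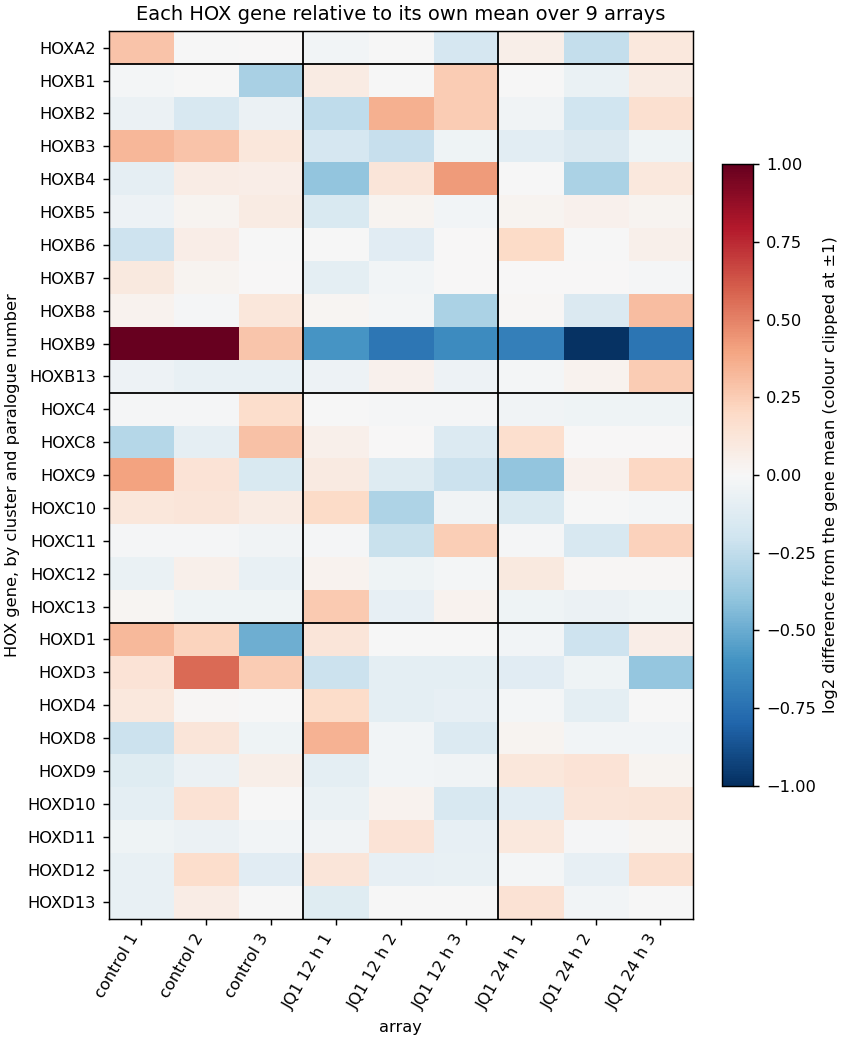
Log2 value of each HOX gene on each of the 9 arrays relative to that gene's own mean, by cluster (A to D, split by lines) and paralogue number, with colours clipped at ±1. HOXB9 is the only row past the clip, in controls 1 and 2 (red, 10.02 and 9.92). Its treated arrays (6.95 to 7.35) are blue and within the clip, while most rows of clusters C and D are pale.

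The other 24 HOX genes were called in none of the comparisons. At 12 h the 25 genes not called differed from control by −0.45 (HOXD3) to 0.23, and 22 of them had a 95% confidence interval within 0.5 log2 of 0. At 24 h the 24 not called differed by −0.18 to 0.15, and 21 had intervals within 0.5. All intervals of these genes lay within 1 log2 of 0 in both comparisons, so a 2-fold change of the array value in either direction lay outside each of them. In a dim row a change of the RNA can be compressed, and the intervals speak only of the array value.

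In cluster A, HOXA2, which patterns the hindbrain and the second arch, differed by −0.16 and −0.12 (SE 0.12 each). In cluster B, HOXB1, a hindbrain gene, read 5.09, 5.11 and 4.79 in controls and 5.19, 5.11 and 5.37 at 12 h (log2 0.23, SE 0.11, limma adjusted p = 0.27). HOXB2 had the next highest difference at 12 h (0.21, SE 0.16) from arrays of 4.63, 5.24 and 5.13. HOXB5, which acts in enteric nerve precursors, differed by −0.07 and 0.01, and HOXB6 by 0.01 and 0.13.

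In cluster C, HOXC9 had the lowest difference of the genes not called at 24 h (−0.18, SE 0.18) and, after HOXD3, at 12 h (−0.21, SE 0.18). Its controls alone spread over 5.59, 5.33 and 5.04. HOXC10 differed by −0.16 at both times (SE 0.12). At 24 h its arrays of 5.38, 5.53 and 5.52 lay below controls of 5.65, 5.66 and 5.62, yet the limma adjusted p was 0.47. HOXC8, which acts in the mammary placode, differed by 0.00 and 0.09, and its highest reading was control 3 (7.03). HOXC13, a regulator of hair keratins, differed by 0.10 and −0.02. HOXC4, HOXC11 and HOXC12 lay within 0.09 of control at both times.

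In cluster D, HOXD10, a gene lowered in invasive breast cancer and a known target of miR-10b, read 5.45, 5.69 and 5.54 in controls and 5.44, 5.67 and 5.67 at 24 h, with differences of −0.08 and 0.03 (SE 0.10). The row of MIR10B, the microRNA gene beside HOXD4, differed by 0.03 and −0.12 (limma adjusted p = 0.92 and 0.45). HOXD9 was −0.01 at 12 h and 0.13 at 24 h, and HOXD8 0.11 and 0.03. HOXD11, HOXD12 and HOXD13, which shape the forearm and digits, differed by 0.05, −0.01 and −0.04 at 12 h and by 0.08, 0.03 and 0.04 at 24 h.

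By paralogue number, both measured members of group 3 (HOXB3 and HOXD3) fell at 24 h, beside 6.34% of all genes called down. Each of these calls was lost under 8 of 19 alternatives. Of the 3 measured members of group 9, HOXB9 fell, and HOXC9 and HOXD9 were not called, with 24 h intervals of −0.58 to 0.23 and −0.04 to 0.30. The HOXC9 and HOXD9 rows had means of 5.19 and 4.41, beside 4.94 for the median of all rows. The treated and control arrays did not overlap for 3 HOX genes at 12 h (11.1%, beside 22.2% of all genes) and for 7 at 24 h (25.9%, beside 26.1%).

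From 12 h to 24 h no HOX gene was called by limma, and 0 of 27 had an unadjusted p under 0.05, beside 0.00672% of all genes called and 6.69% with such a p. The arrays of the 2 times did not overlap for HOXC4 (lower at 24 h) and HOXD9 (higher), or 7.41% of HOX genes, beside 12.9% of all genes. HOXB9 differed by −0.15 between the times (95% confidence interval −1.05 to 0.74), HOXB3 by 0.05 and HOXD3 by −0.05. The lowest unadjusted p was that of HOXD9, at 0.087, with a difference of 0.14. Both comparisons with control share the same 3 controls, so the likeness of their differences is not independent evidence.

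Of 14 measured noncoding genes of the clusters, 0 were called at either time, beside 7.93% and 11.5% of all genes. Their differences ran from −0.10 to 0.26 at 12 h and from −0.12 to 0.19 at 24 h. The noncoding genes included HOTAIR, the cluster C transcript linked to breast cancer spread (−0.10 and 0.00), HOTTIP of cluster A (−0.02 and 0.08), HOXB-AS3 (0.06 and 0.00) and HAGLR, next to HOXD1 (0.08 and 0.09). The HOTAIR and HOTTIP rows had means of 4.21 and 4.59, below the median of all rows, 4.94, and that of HAGLR was 5.27. Whether such dim rows could show a fall of the RNA was not tested. Of 15 measured genes flanking the clusters, LNPK, an endoplasmic reticulum junction gene beyond HOXD13, rose at 12 h (log2 0.44, SE 0.10, limma adjusted p = 0.026) and was the 1 member called, beside 3.54% of all genes called up. The LNPK call was lost without control 1, control 2, or 12 h replicate 2 or 3, in the 2 groups alone and over all rows (limma adjusted p up to 0.10). At 24 h LNPK differed by 0.18 (0.30) and 0 flanking genes were called. Without control 3, 3 flanking genes were called up and 4 down at 12 h, and 0 and 3 at 24 h, beside 20.1% and 20.9% of all genes. HIBADH, beyond the cluster A end, read 10.31, 10.31 and 8.94 in controls and 8.85 to 9.29 in treated arrays, so control 3 lay within the treated range.

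**Figure D4:**
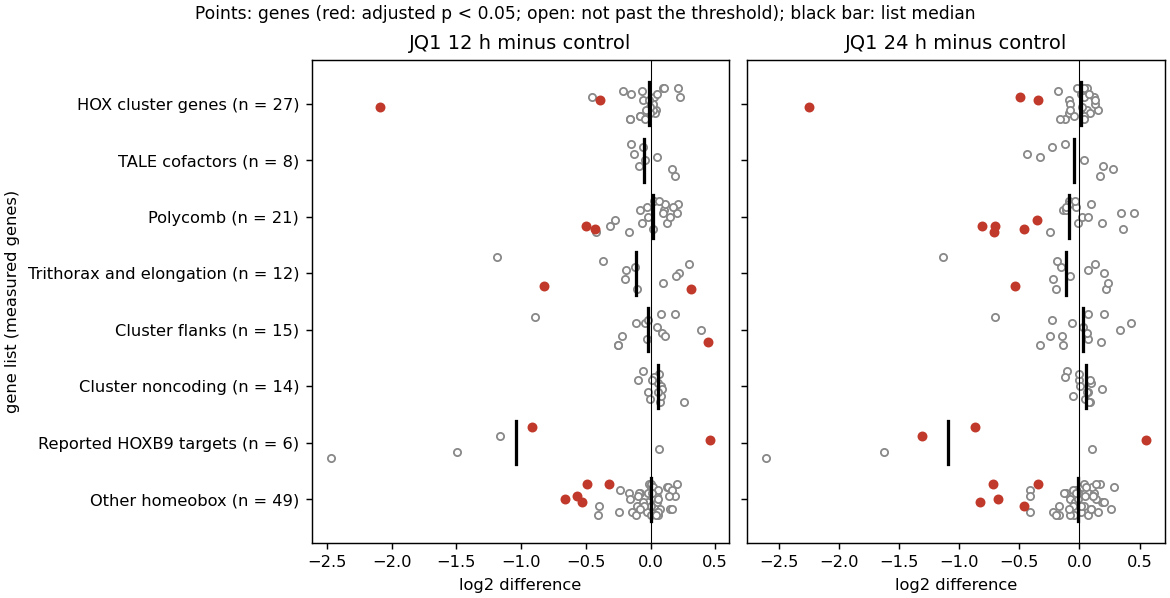
Log2 differences from control at 12 h (left) and 24 h (right) for the HOX genes and 7 related gene lists; each point is a gene, red where the adjusted p was under 0.05, and the black bar is the list's median. In the HOX row HOXB9 sits apart at −2.09 and −2.25 while the bar stays near 0 (−0.01 and 0.01), and the list of reported HOXB9 targets, with 6 genes, has medians of −1.04 and −1.09.

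The partners and regulators of HOX genes were counted by list. Of 8 measured TALE partners, 0 were called at either time, beside 7.93% and 11.5% of all genes. With 8 genes, a count of 0 cannot be told apart from those shares. MEIS2 differed by −0.43 at 24 h (limma adjusted p = 0.15), PBX3 by −0.33 (0.14) and PBX4 by 0.28 (0.13). Of 21 Polycomb genes, 0 rose and 2 fell at 12 h (median 0.02), and 0 rose and 5 fell at 24 h (median −0.08), beside the 4.39% and 6.34% of all genes called down. Without control 3, 3 rose and 2 fell at 12 h and 2 rose and 5 fell at 24 h, beside 20.1% and 20.9% of all genes called in either direction. With 1 array at a time left out, 0 to 5 were called at 12 h and 1 to 7 at 24 h.

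PHF19, a subunit that recruits Polycomb repressive complex 2 to chromatin, fell 1.63-fold at 24 h, from 7.88 ± 0.24 to 7.18 ± 0.02 (log2 −0.71, SE 0.11, limma adjusted p = 0.0051), and was called under all 19 alternatives. EZH2, the methyltransferase of that complex, read 9.06, 9.13 and 9.78 in controls, 8.93, 9.14 and 8.96 at 12 h, and 8.39, 8.71 and 8.44 at 24 h, so it overlapped control at 12 h (log2 −0.31, limma adjusted p = 0.38) and fell at 24 h (−0.81, SE 0.18, 0.020). Control 3 was the highest array for EZH2, as it was for PHF19 and PCGF6. The EZH2 call was lost without 24 h replicate 1 or 3 and in the 2 groups alone (limma adjusted p up to 0.083). PCGF2, of Polycomb complex 1, fell at both times (log2 −0.43 and −0.46, limma adjusted p = 0.026 and 0.015). PCGF5 and PCGF6 fell at 24 h (−0.35 and −0.71, limma adjusted p = 0.030 and 0.048). At 24 h the PCGF2 call was lost without control 2 or 24 h replicate 3, the PCGF5 call without control 1, control 2, 12 h replicate 2 or any 24 h array, and the PCGF6 call without any of the arrays except controls 2 and 3. At 12 h the PHF19 call was lost without control 1, any 12 h array, or 24 h replicate 1 or 3, and that of PCGF2 without control 1, control 2, or 12 h replicate 1 or 3.

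Of 12 measured trithorax and elongation genes, 1 rose and 1 fell at 12 h and 0 rose and 1 fell at 24 h, beside 7.93% and 11.5% of all genes called in either direction. NSD1, an H3K36 methyltransferase, fell from 8.13 ± 0.07 to 7.30 ± 0.20 at 12 h (log2 −0.82, SE 0.13, limma adjusted p = 0.0067, called under all 19 alternatives) and to 7.59 ± 0.22 at 24 h (−0.54, 0.029; lost without control 1, control 2, or 24 h replicate 1 or 3). DPY30, a core subunit of MLL complexes, rose at 12 h (log2 0.31, SE 0.08, limma adjusted p = 0.045), a call lost under 12 of 19 alternatives, among them each array left out except control 3 and 12 h replicate 1. Without control 3, 2 genes of the list rose and 4 fell at 12 h and 0 and 4 at 24 h, beside 20.1% and 20.9% of all genes called.

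Genes that HOXB9 has been reported to raise in breast cells did not move as 1 group. The list held 10 genes, of which 6 were measured. Of these 6, 1 rose and 1 fell at 12 h, and 1 rose and 2 fell at 24 h, where 7.93% and 11.5% of all genes were called. FGF2 differed by 0.06 and 0.11 and was not called. Its row had a mean of 4.48, below the median of all rows, 4.94. Whether a row at that level could show a fall of the RNA was not tested. NRG1, an ErbB receptor ligand, read 6.87, 7.02 and 6.46 in controls and 5.67 to 5.99 in treated arrays, a 1.89-fold fall at 12 h (log2 −0.92, SE 0.15, limma adjusted p = 0.0066) and 1.83-fold at 24 h (0.0062). NRG2, another ligand of the family, rose (log2 0.46 and 0.55, limma adjusted p = 0.019 and 0.0069). The 12 h NRG2 call was lost without control 2 or 12 h replicate 1 or 3, and also with the mean of the gene's rows. EREG, which encodes epiregulin, differed by −1.16 at 12 h (0.074) and fell at 24 h (−1.31, limma adjusted p = 0.038). Its 24 h call held without control 3 and ended when any 1 of the other 8 arrays was left out. VEGFA and CXCL8, named here for their spread, were low in control 3 as HOXB9 was. VEGFA read 9.43, 9.79 and 7.20 in controls and 7.14 to 7.45 in treated arrays, so that control 3 lay within the treated range, and CXCL8 read 9.15, 8.94 and 5.17 in controls. Without control 3, 1 of the 6 rose and 4 fell at both times, where 20.1% and 20.9% of all genes were called.

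Of 49 measured homeobox genes outside the clusters, 0 rose and 5 fell at each time, beside 4.39% and 6.34% of all genes called down, with medians of 0.00 and −0.02. SIX4, a regulator of muscle and sense organ development, fell by 0.53 at 12 h and 0.83 at 24 h on the log2 scale (limma adjusted p = 0.033 and 0.0038). IRX3 fell by 0.49 and 0.71 (0.045 and 0.0075 by limma, adjusted) and CUX1 by 0.66 and 0.68 (limma adjusted p = 0.015 and 0.010). ZEB2, a mesenchymal zinc finger and homeobox factor, fell by 0.32 and 0.34 (limma adjusted p = 0.041 and 0.024). ZFHX3 fell at 12 h (log2 −0.57, limma adjusted p = 0.035) and ZEB1 at 24 h (−0.46, limma adjusted p = 0.042). SIX4, IRX3 and CUX1 were called at 24 h under all 19 alternatives run, as HOXB9 was. Each of the 12 h calls in this list, and the 24 h calls of ZEB1 and ZEB2, was lost when 1 of several arrays was left out (limma adjusted p up to 0.15). Leaving out control 2 ended every one of these calls, and without control 3 the list had 8 called at each time, beside 20.1% and 20.9% of all genes.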

How the data were processed

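Total RNA of 9 samples was read on Human Gene 2.0 ST arrays. The authors deposited 1 table of log2 values with 53617 rows and 1 column per array. Per the submitters' processing notes it was made with Transcriptome Analysis Console; background correction, normalization, summarisation and genome build are not given in the sources used here, and the log2 scale was read from the values. The platform's gene table named 16098 rows. The row with the highest mean stood for a gene, which left 14884 genes.

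Group means over the 9 arrays were estimated with limma 3.58.1 in R 4.3.3, by empirical Bayes with no trend (3.14 prior degrees of freedom). Benjamini-Hochberg adjustment ran over all 14884 genes in each of 3 comparisons, and a gene was called under 0.05. Limma intervals are at 95%. No filter on dim genes was applied. The fit was tested on simulated data. The number of arrays, 3 per group, limits the precision.

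The HOX genes and the lists were chosen with earlier results of these data known. HOX genes called are given with all arrays; of the others, the 3 highest and 3 lowest differences per comparison with control are named, and in lists the called members, up to 6. VEGFA, CXCL8, HIBADH, HOXD1, the second HOXD4 row and other genes named with no call were chosen after their values were seen. A planned dim reference of olfactory receptor genes was dropped, since 1 such gene was named. RefSeq tables (GRCh38.p14) gave gene order and sequences; protein identity was not analysed here. Alternatives left out each array, added the replicate number as a block, fitted 2 groups alone, changed the empirical Bayes prior, array weights, the row rule, the genes tested or the normalization between arrays.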

Additional observations from a re-analysis of the deposited data

How the results depend on the processing

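With 1 array left out at a time, HOX genes called ran from 0 to 3 at 12 h, from 1 to 4 at 24 h and from 0 to 0 between the times. Over the same fits, members called ran from 0 to 5 (12 h) and 1 to 7 (24 h) for Polycomb, 1 to 6 and 0 to 4 for trithorax and elongation, 0 to 7 and 0 to 3 for cluster flanks, 1 to 5 and 2 to 5 for reported HOXB9 targets, and 0 to 8 and 3 to 8 for other homeobox genes. In each of these the highest count came without control 3. For TALE partners and cluster noncoding genes the count was 0 in all of them. Without control 3, 20.1% and 20.9% of all genes were called at 12 h and 24 h.

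In a fit of the 2 groups alone, 0 HOX genes were called at 12 h and 1 at 24 h, where fewer arrays set the spread. Over all 53617 rows, 1 was called at 24 h. With the replicate number as a block (the replicate block), 1 was called at 12 h and 2 at 24 h; HOXB3 was not called at either time (limma adjusted p = 0.057 and 0.071). Deviations of same-numbered arrays correlated between −0.32 and 0.22, and 2 of 9 arrays were closest to their own number. With 3 arrays per group and control 3 apart from the other controls, these values cannot decide whether the numbers pair the samples. An intensity trend, a robust prior, a mean of at least 5, the mean of a gene's rows, quantile normalization and centring each left 2 called at 12 h and 3 at 24 h, and array weights left 3 at each time. HOX differences that were called kept their sign under all alternatives run. The planned filter on olfactory receptor level was not run. No detection calls or backgrounds were used here, so changes in dim HOX rows may be understated.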

Other observations

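Exact repeats of a value across arrays were common in the HOX rows. A value occurred on at least 2 of the 9 arrays for 16 of 27 HOX genes (59.3%) and on at least 3 arrays for 8, beside 44.4% and 22.8% of all genes. Among all genes such repeats were found for 60.4% of those below the median level and 28.4% of those above it. HOXB5, HOXB7, HOXC4 and HOXC11 each had 1 value shared by 4 arrays, HOXB3 and HOXD3 had 1 shared by 2, and HOXB9 had 9 distinct values. The cause of the repeats was not tested.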
